A study of Mus musculus with 33 samples.

Results

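The genes described here are 10 genes of fibroblast growth factor (FGF) signalling, chosen by their symbols: the ligands Fgf8, Fgf17 and Fgf18, the receptors Fgfr1, Fgfr2 and Fgfr3, the feedback inhibitors Spry2, Spry4 and Dusp6, and the transcription factor Etv4. All 10 were present among the 17120 genes of the count table. FGF ligands bind receptor tyrosine kinases at the cell surface and drive the RAS and ERK kinase cascade, and ERK activity induces both ETS transcription factors such as Etv4 and inhibitors that damp the same cascade. In the embryo, Fgf8 is made in the primitive streak, the tailbud and the presomitic mesoderm, FGF signalling from the myotome acts on the early Scx-expressing tendon progenitors of the somite, and Fgf18 and Fgfr3 act in growing cartilage. These roles are textbook background and not results of the present data.

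RNA was sequenced from cultures of mouse embryonic stem cells (mESCs) that carry ScxGFP, a green fluorescent reporter of the tendon factor Scx. The paraxial mesoderm (PM) group was collected at day 6 (D6), after embryoid body formation with the BMP inhibitor LDN-193189 and further culture with LDN-193189 and the Wnt agonist CHIR. The other 10 groups were monolayers given TGFβ1, the hedgehog agonist SAG and FGF2 from D6, with either CD1530, an agonist of retinoic acid receptor gamma (tendon protocol), or AGN 193109 (called AGN below), which lowers the basal activity of retinoic acid receptors as an inverse agonist (fibrocartilage protocol). They were collected at D6.25 and D6.75, then at D7.5 and D8.5, and last at D10. Each of the 11 groups held 3 libraries, called biological replicates by the study, which worked with several ScxGFP mESC lines, and the line behind each library was not given in the sources used here. Since FGF2 was in both media, neither monolayer condition lacked added FGF. The media from D6 held FGF2, TGFβ1, SAG and a retinoid ligand, and the study's methods do not list LDN-193189 or CHIR in them. The factors gained and those no longer listed cannot be told apart in the step from PM to D6.25. How the PM cells of these libraries were grown at collection was not given in the sources used here. Whether the PM cultures had themselves received AGN or retinoic acid before D6 was not given for these libraries. With AGN before D6, the AGN groups would not have differed from PM in the retinoid ligand.

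The libraries held 17116084 to 22775275 counts, except AGN D8.5 replicate 1 with 38120841. CD1530 D6.75 replicate 1 stood apart from its group, with a chi-square per gene of 20.6 and 21.9 against the other 2 replicates, where no other pair of replicates exceeded 4.87. Without it, the number of the 10 genes called stayed at 5 between conditions at D6.75, and in CD1530 at 8 from D6.25 to D6.75 and at 7 from D6.75 to D7.5. For the difference in step between conditions it was 6 instead of 5 from D6.25 to D6.75 and stayed at 4 from D6.75 to D7.5, and for the condition by time interaction it was 9 instead of 10, Fgf17 being lost. The D6.75 differences became -1.33 for Fgf8, 0.17 for Fgfr1, -0.48 for Fgfr2, 0.91 for Fgfr3 and 0.46 for Etv4, all still called. The labels were compared with lists of marker genes, which were chosen with earlier results of these data known. The mesoderm genes T and Tbx6 stood at 78.98 and 9.56 CPM (counts scaled to a common library total) in PM, beside 701.2 CPM of the pluripotency gene Pou5f1, so the PM cultures also held abundant transcripts of undifferentiated cells. Scx stood at 6.41 CPM in PM, and at D10 it had reached 857.6 CPM under CD1530 and 1223 CPM under AGN, and the summed level of 6 retinoic acid receptor target genes at D10 was 827.2 to 832.1 CPM in CD1530 against 38.7 to 39.8 CPM in AGN. In these bulk libraries, fewer cells of a type and less RNA per cell cannot be told apart.

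Levels below are CPM after TMM scaling, which evens out differences in library composition, given as mean ± SD over 3 libraries. Differences are log2 fold changes ± SE, and a gene was called changed at an adjusted p under 0.05 over all 17120 genes of a contrast. The 10 genes covered a wide range of levels and of change. Between its highest and lowest group mean, Fgf8 varied by a factor of 53.1, Fgf18 by 25.9, Fgfr2 by 13.1, Fgf17 by 9.86 and Fgfr3 by 7.17, whereas Dusp6, Fgfr1, Spry4, Spry2 and Etv4 varied by factors of 4.79, 3.32, 2.77, 2.32 and 1.74. Per kilobase of exon, the scale on which levels of different genes can be compared, Spry2 (50.5), Dusp6 (25.36), Etv4 (18.23) and Fgfr1 (16.85) led in PM, and the ligands stood at 4.88 (Fgf8), 2.08 (Fgf17) and 1.44 (Fgf18) CPM per kilobase. At D10 in AGN the order was Dusp6 (92.6), Fgfr1 (56.0), Fgf18 (37.3), Spry2 (21.8) and Etv4 (17.8), and the highest of the other 5 was Spry4 at 9.28 CPM per kilobase. The ligands and the minor receptors were thus the more variable members, and the feedback and output genes the more even ones.

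**Figure D1:**
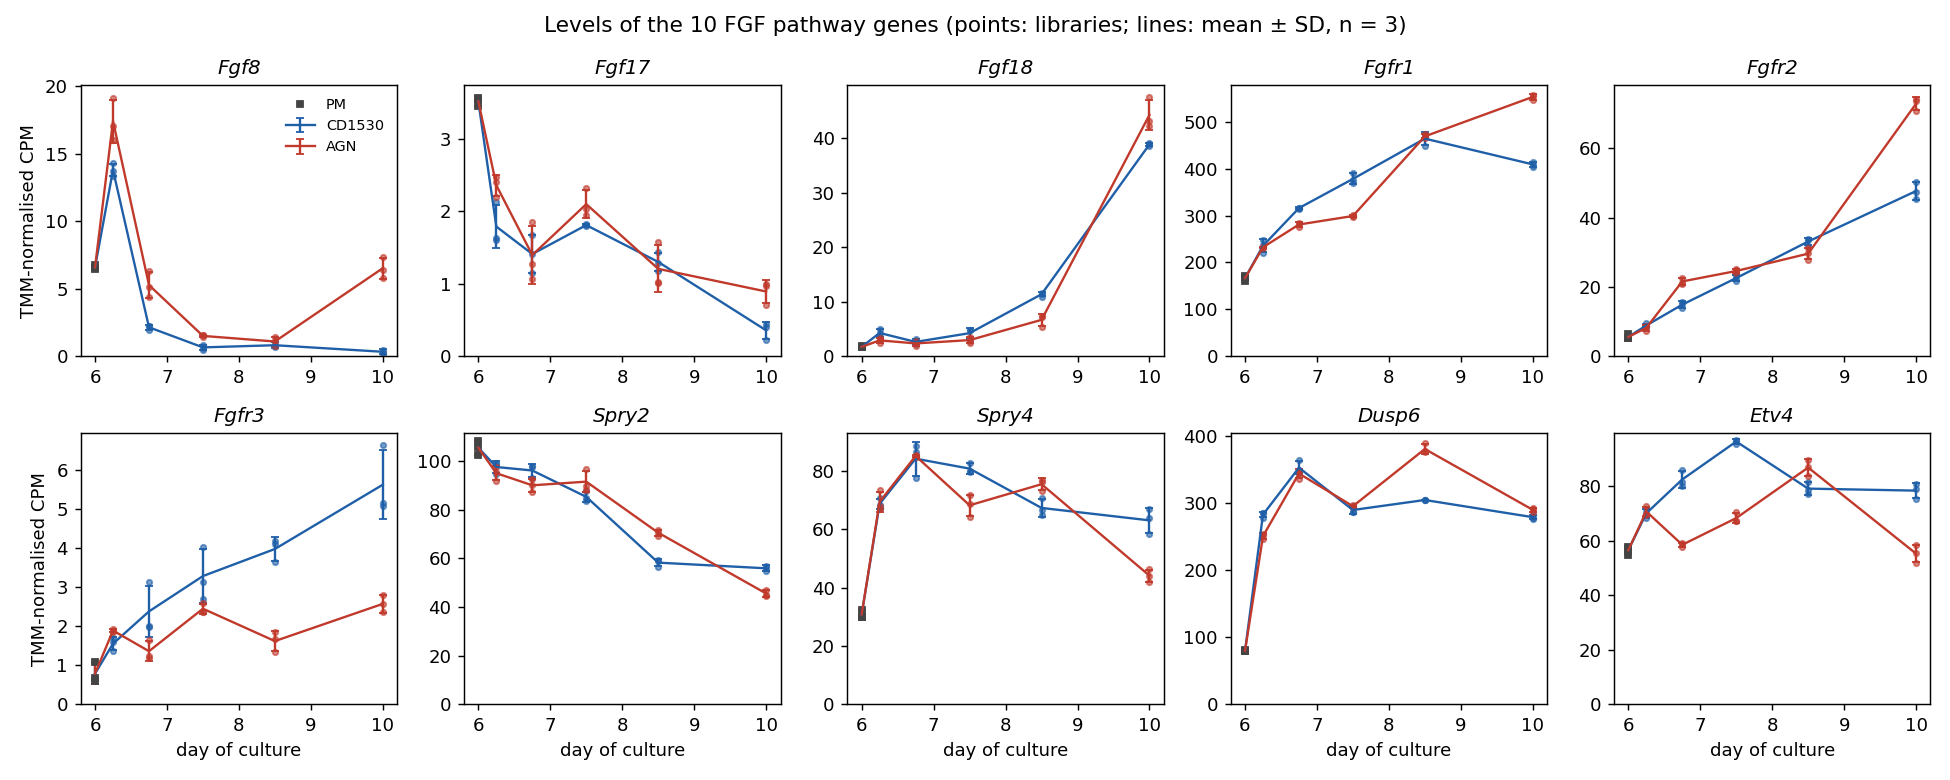
TMM-normalised CPM of each of the 10 genes (y axis, from 0, own scale per panel) against the day of culture (x axis), with points for single libraries and lines for means ± SD of 3 libraries in PM (grey), CD1530 (blue) and AGN (red). Fgf8 peaks at D6.25 in both conditions and ends at 6.52 CPM in AGN but 0.328 CPM in CD1530, and Dusp6 is at 251 CPM or more in every group but PM.

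Among the ligands, Fgf8 rose at the first time point, fell by D7.5 in both conditions, and then separated them at D10. It stood at 6.59 ± 0.14 CPM in PM, and D6.25 brought it to 13.8 ± 0.47 CPM (CD1530) and 17.4 ± 1.6 CPM (AGN). The CD1530 and AGN means were 2.14 ± 0.16 and 5.27 ± 0.95 CPM at D6.75, 0.653 ± 0.19 and 1.50 ± 0.062 at D7.5, and 0.813 ± 0.22 and 1.09 ± 0.35 at D8.5. At D10 the libraries held 0.152, 0.495 and 0.337 CPM in CD1530, from 3, 9 and 6 counts, and 5.81, 6.38 and 7.37 CPM in AGN, from 93, 106 and 124 counts. Every AGN library at D10 was thus above every CD1530 library, and the AGN level was back in the range of PM.

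The difference in Fgf8 between CD1530 and AGN was -4.31 ± 0.25 at D10 (adjusted p = 3.31e-18). It was -1.31 ± 0.16 at D6.75 (adjusted p = 4.6e-08) and -1.17 ± 0.27 at D7.5 (adjusted p = 0.000967), but it was not called at D6.25, where it was -0.34 ± 0.11, nor at D8.5, where it was -0.31 ± 0.28. From D8.5 to D10, Fgf8 fell further in CD1530 (-1.33 ± 0.39, adjusted p = 0.00368) and rose in AGN (2.67 ± 0.19, adjusted p = 5.89e-16). The test of the difference between these steps gave -4.00 ± 0.44 (adjusted p = 1.61e-09). Against PM, Fgf8 at D10 differed by -4.32 ± 0.25 in CD1530 and by -0.01 ± 0.14 in AGN, comparisons that share the same 3 PM libraries.

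Other marker genes moved with the late Fgf8 level in AGN. T, the mesoderm and notochord factor brachyury, went from 9.31 to 27.14 CPM between D8.5 and D10 in AGN and from 2.05 to 0.503 CPM in CD1530, and Foxa2, an endoderm and notochord factor, went from 2.25 to 14.07 CPM in AGN and from 2.10 to 4.28 CPM in CD1530. The 7 presomitic mesoderm and tailbud markers summed to 32.02 to 33.07 CPM in AGN and 9.14 to 12.05 CPM in CD1530 at D10, but 3 of the 7 in AGN, Msgn1, Wnt3a and Cdx2, were at or under 3 counts per library, and Tbx6 was at 0.360 CPM. Of the 7, T was called lower in CD1530 and Dll1, Wnt3a and Cdx2 higher. The endoderm markers other than Foxa2 fell in that step in AGN, Sox17 from 5.22 to 2.67 CPM between D8.5 and D10 (-0.96 ± 0.17, adjusted p = 5.51e-06) and Afp as well (-3.66 ± 0.61, adjusted p = 1.83e-06), and at D10 both were called higher in CD1530 (0.75 ± 0.18 and 1.99 ± 0.80). The 3 endoderm markers summed to 15.39 to 19.09 CPM in AGN, with Afp at or under 3 counts per library, and to 8.54 to 9.74 in CD1530. The part of these cell types in the Fgf8 level was not tested.

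Fgf17, a relative of Fgf8 that shares part of its expression in the tailbud, was highest in PM at 3.51 ± 0.060 CPM and lowest at D10 in both conditions. At D10 it was at 0.404, 0.440 and 0.225 CPM in CD1530 and 1.00, 0.963 and 0.713 in AGN, which did not overlap (difference -1.30 ± 0.35, adjusted p = 0.00193). These values rest on 4 to 8 counts per CD1530 library and 12 to 16 per AGN library. At the other 4 times Fgf17 was not called, with differences from -0.39 to 0.14. The only step called after the first in CD1530 was the last (-1.84 ± 0.32, adjusted p = 3.5e-06), and that step was not called in AGN (-0.40 ± 0.26), with a difference between the steps of -1.44 ± 0.42 (adjusted p = 0.00836).

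Fgf18 took the opposite course and ended as the highest of the 3 ligands per kilobase, with D10 values of 32.8 CPM per kilobase (CD1530) and 37.3 (AGN), beside 0.243 and 4.83 for Fgf8. Its mean was 1.71 ± 0.14 CPM in PM and 2.35 to 4.27 CPM through D7.5, then 11.4 ± 0.37 in CD1530 and 6.68 ± 1.1 in AGN at D8.5. At D10 the CD1530 libraries were at 39.2, 38.5 and 39.0 CPM and the AGN libraries at 47.5, 42.2 and 43.2 CPM. The rise over the last step was larger in AGN (2.71 ± 0.11) than in CD1530 (1.77 ± 0.11), with a difference of -0.93 ± 0.16 (adjusted p = 1.28e-05).

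The order of the conditions in Fgf18 thus changed along the course. CD1530 had more Fgf18 at D7.5, by 0.50 ± 0.18 (adjusted p = 0.0325), and at D8.5 (0.75 ± 0.13, adjusted p = 6.11e-06), while at D10 the AGN libraries all lay above the CD1530 ones without a call (-0.19 ± 0.094, adjusted p = 0.101). The D7.5 groups overlapped, and its call was lost when AGN replicate 1 or 3 or CD1530 replicate 1 or 2 was left out, with differences of 0.47, 0.38, 0.40 and 0.37. At D10, Fgf18 exceeded PM by 4.50 ± 0.14 in CD1530 and 4.69 ± 0.14 in AGN. It was the only one of the 3 ligands higher than PM at D10 in either condition.

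Of the receptors, Fgfr1 was the main one throughout, and all 3 were higher at D10 than in PM. Per kilobase of exon, Fgfr1 made up 96.3% of the 3 receptors' summed level in PM and 88.46% (CD1530) and 88.3% (AGN) at D10. Fgfr2 went from 3.07% of that sum to 9.86% and 11.13%, and Fgfr3 was at 0.446% to 1.68% in all 11 groups. The annotated span of Fgfr2 in GENCODE M21 (GRCm38, chr7:130162451-133123350) overlaps 23 other genes of the table because 1 of its 27 transcripts reaches far beyond the rest, so if that transcript was in the annotation used for counting, reads could be shared with those genes.

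Fgfr1 climbed from 166 ± 4.8 CPM in PM to D8.5 levels of 464 ± 15 CPM (CD1530) and 469 ± 4.0 CPM (AGN), a difference of -0.01 ± 0.033 that was not called. Then it fell in CD1530 (-0.18 ± 0.034, adjusted p = 1.28e-05) and rose in AGN (0.24 ± 0.033, adjusted p = 7.11e-08). At D10 the libraries were at 405, 415 and 408 CPM in CD1530 and 557, 555 and 547 in AGN. The difference was -0.43 ± 0.034 (adjusted p = 2.24e-14), after the reverse order at D6.75 (0.17 ± 0.034, adjusted p = 0.000216) and at D7.5 (0.34 ± 0.034, adjusted p = 9.91e-11). The D6.75 call was lost in a fit of the compared groups only (0.18, adjusted p = 0.0669).

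Fgfr2 rose at every step in both conditions, starting at 5.55 ± 0.65 CPM in PM and ending at 47.7 ± 2.5 CPM (CD1530) and 72.9 ± 1.9 CPM (AGN). Its rise from D6.75 to D7.5 in AGN (0.19 ± 0.068, adjusted p = 0.0275) was lost without AGN D6.75 replicate 1 or 2 or AGN D7.5 replicate 2 or 3, with values of 0.17 to 0.18. The D10 libraries were at 50.3, 47.4 and 45.4 CPM in CD1530 and at 73.6, 74.4 and 70.8 CPM in AGN, well apart (-0.61 ± 0.058, adjusted p = 9.1e-12). Fgfr2 was also lower in CD1530 at D6.75 (-0.53 ± 0.071, adjusted p = 1.76e-07). A small difference of the other sign at D8.5 (0.16 ± 0.063, adjusted p = 0.0461) was lost without CD1530 D8.5 replicate 1 or 2 or AGN D8.5 replicate 2 or 3, with values of 0.14, 0.14, 0.15 and 0.12, with replicate number as a block (adjusted p = 0.0646), with DESeq2 size factors (0.14, adjusted p = 0.0667) and with DESeq2 (0.14, adjusted p = 0.0774).

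Fgfr3, the receptor that restrains chondrocyte proliferation in the growth plate, was the least abundant of the 3 receptors. It was called higher in CD1530 at D6.75, D8.5 and D10. At D6.25 (-0.29 ± 0.22) and D7.5 (0.41 ± 0.19) it was not called. At D8.5 its libraries were at 3.63, 4.10 and 4.19 CPM in CD1530 and 1.84, 1.68 and 1.32 in AGN. At D10 they were at 5.15, 5.06 and 6.63 CPM in CD1530 and 2.56, 2.35 and 2.79 in AGN. The groups did not overlap at either time, and the differences were 1.26 ± 0.19 (adjusted p = 7.22e-07) and 1.12 ± 0.18 (adjusted p = 1.52e-06).

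Fgfr3 was also called at D6.75 (0.80 ± 0.22, adjusted p = 0.006), a call that was lost without CD1530 D6.75 replicate 2 (0.55, adjusted p = 0.0871) and in a fit of the compared groups only (0.81, adjusted p = 0.0907). Neural markers were also higher in CD1530 at the later times. Of the 7, 5 were called at D8.5 (40.0% of all genes), all higher in CD1530 (3492 of the 17120 genes). At D10 all 7 were called (46.6%), 6 higher (22.7%) and En2 lower (24.0%). At D6.75 their sums overlapped, at 310.8 to 331.4 CPM in CD1530 and 304.1 to 336.4 CPM in AGN. Most of those sums was Sox2, at 274.5 CPM in both conditions, which the study used as a pluripotency gene, so they say little about neural cells. Sox1 stood at 29.47 CPM in CD1530 and 0.753 CPM in AGN at D8.5 and at 16.03 and 0.367 at D10. The 7 neural markers together summed to 141.0 to 153.5 CPM in CD1530 and 66.66 to 69.71 CPM in AGN at D10, where Neurog2 was at 0 in AGN. Of these sums, Sox2 alone gave 77.87 CPM in CD1530 and 49.23 CPM in AGN. Cartilage markers had the other direction from Fgfr3, with 4 genes summing to 222.5 to 229.3 CPM in CD1530 and 2909 to 3042 CPM in AGN at D10. The part of either cell type in the Fgfr3 level was not tested.

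The feedback inhibitors moved apart in the first step of the monolayer culture. Dusp6 encodes a phosphatase that inactivates ERK, and the Sprouty proteins Spry2 and Spry4 block the path from receptor to RAS. Dusp6 went from 78.8, 80.2 and 79.2 CPM in the PM libraries to 285, 278 and 285 CPM in CD1530 and 254, 246 and 252 CPM in AGN at D6.25, a rise of 1.83 ± 0.032 (adjusted p = 7.87e-37) and 1.66 ± 0.032 (adjusted p = 2.62e-35). Spry4 went from 30.8 ± 1.4 CPM to 68.8 ± 1.7 and 69.5 ± 3.5 CPM, a rise of 1.16 ± 0.056 and 1.17 ± 0.056. Spry2 fell slightly, from 105 ± 2.9 CPM to 97.5 ± 2.5 and 94.9 ± 2.9.

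The fall of Spry2 was -0.11 ± 0.040 in CD1530 (adjusted p = 0.0131) and -0.15 ± 0.040 in AGN (adjusted p = 0.00116). The CD1530 call was lost without PM replicate 1 (-0.09), without CD1530 D6.25 replicate 1 (-0.09) and with scaling by library size only (-0.06). Spry2, alone among the 3 inhibitors, was highest in PM, and at D10 it was lower than PM by -0.92 ± 0.042 in CD1530 and -1.21 ± 0.044 in AGN.

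Because Dusp6 and Spry2 moved in opposite directions at this step, the bases before their annotated starts are shown. They are the 250 bases upstream of the start in RefSeq (GRCm38.p6), read 5′ to 3′ on the strand of the gene, Dusp6 at chr10:99262981-99263230 (+) and Spry2 at chr14:105896820-105897069 (-), with every CGGAA or TTCCG in capitals, which is the ETS factor core with a preceding C on either strand. The shorter core GGAA without that C was not counted and is not marked. The letters of both windows hold it unmarked, as ggaa or ttcc.
Dusp6: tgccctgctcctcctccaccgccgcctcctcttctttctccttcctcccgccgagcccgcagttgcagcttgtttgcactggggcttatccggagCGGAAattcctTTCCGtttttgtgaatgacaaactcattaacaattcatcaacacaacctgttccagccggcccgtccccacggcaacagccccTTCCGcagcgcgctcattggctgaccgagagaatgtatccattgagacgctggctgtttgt
Spry2: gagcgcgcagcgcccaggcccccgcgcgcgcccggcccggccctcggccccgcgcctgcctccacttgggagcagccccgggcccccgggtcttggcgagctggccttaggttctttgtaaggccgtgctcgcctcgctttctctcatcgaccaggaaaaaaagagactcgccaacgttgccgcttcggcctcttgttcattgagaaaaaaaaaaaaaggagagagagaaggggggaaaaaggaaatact
The Dusp6 window held CGGAA on either strand at 3 places and the Spry2 window at none, beside 25.2% of all 32851 promoter windows of this length with at least 1. Neither window held AGGTCA or TGACCT, the hexamer bound by retinoid receptors, which 14.0% of the windows held. RefSeq windows are reported here for 5 of the 10 genes, the others being Fgf18, Fgfr2 and Fgfr3, and those 3 held neither motif. Spry4, the inhibitor that rose with Dusp6 at this step, is not among the genes with a reported window. Whether the motif goes with the direction of change among the inhibitors was thus not tested. A match is a description of the letters and no evidence of binding.

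Dusp6 kept its high level after D6.25. Its means lay between 251 and 381 CPM in all 10 monolayer groups, with the highest in AGN at D8.5. At D8.5 the libraries were at 305, 304 and 305 CPM in CD1530 and 377, 389 and 376 CPM in AGN, a difference of -0.32 ± 0.029 (adjusted p = 4.67e-12). At D10 the libraries were at 277, 282 and 278 CPM in CD1530 and 291, 292 and 287 CPM in AGN, which did not overlap but were not called (-0.06 ± 0.030, adjusted p = 0.126), although they were with DESeq2 size factors (-0.07, adjusted p = 0.0335) and with DESeq2 (-0.07, adjusted p = 0.0172). Dusp6 was the only one of the 10 genes called between conditions at D6.25 (0.17 ± 0.030, adjusted p = 0.000215).

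Spry4 was lower in CD1530 at D8.5 and higher in CD1530 at D10. At D8.5 its libraries were at 65.0, 70.7 and 66.5 CPM in CD1530 and 76.4, 77.1 and 73.1 CPM in AGN (-0.17 ± 0.052, adjusted p = 0.00998). At D10 they were at 67.1, 58.4 and 63.8 CPM in CD1530 and 46.3, 44.0 and 42.1 in AGN (0.52 ± 0.056, adjusted p = 2.77e-10). Neither pair of groups overlapped, and the D8.5 call was lost without CD1530 D8.5 replicate 1 (-0.14, adjusted p = 0.0634).

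Spry2 made the same turn, with -0.28 ± 0.043 at D8.5 (adjusted p = 1.01e-06) and 0.30 ± 0.046 at D10 (adjusted p = 7.02e-07). Its libraries were at 59.3, 58.7 and 56.5 CPM in CD1530 and 71.6, 70.5 and 69.3 in AGN at D8.5, and at 54.6, 57.0 and 56.0 CPM in CD1530 and 44.5, 45.0 and 47.0 in AGN at D10. The CD1530 level stayed within a few CPM between these times, and the AGN level did not.

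Etv4, an ETS factor induced by FGF signalling, differed between conditions at 4 of the 5 times and changed sign in between. At D6.75 it stood at 86.1, 81.5 and 80.1 CPM in CD1530 and 57.8, 58.7 and 59.2 in AGN (0.50 ± 0.043, adjusted p = 6.02e-12), and at D7.5 it again differed by 0.50 ± 0.043. At D8.5 the order turned, with 77.1, 81.6 and 78.8 CPM in CD1530 and 89.8, 83.8 and 87.2 in AGN (-0.14 ± 0.043, adjusted p = 0.00927), a call lost without CD1530 D8.5 replicate 1 (-0.12, adjusted p = 0.0544) or AGN D8.5 replicate 1 (-0.11, adjusted p = 0.0708). At D10 it was at 80.9, 75.3 and 79.2 CPM in CD1530 and 58.3, 55.6 and 51.9 in AGN (0.51 ± 0.045, adjusted p = 1.39e-12). The AGN level at D10 differed from PM by -0.03 ± 0.046, and the CD1530 level by 0.47 ± 0.044 (adjusted p = 8.93e-13).

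**Figure D2:**
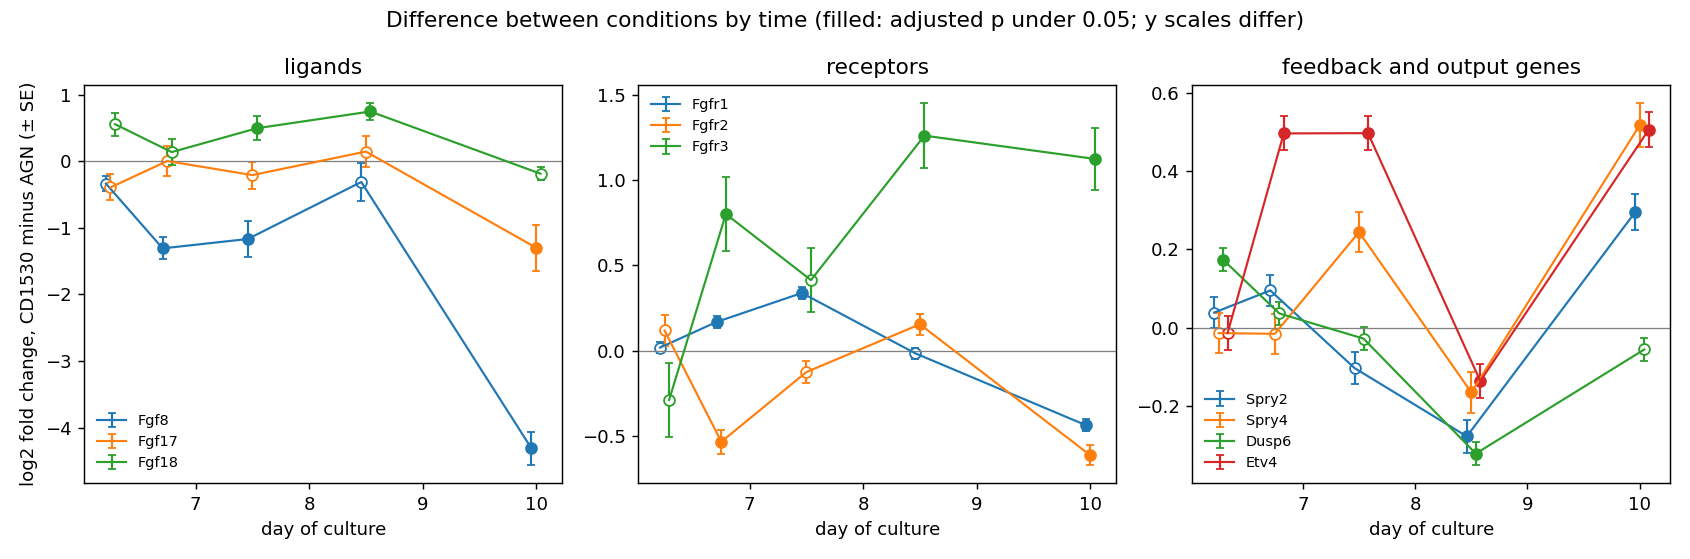
Log2 fold change, CD1530 minus AGN, with SE (y axis, own scale per panel) against the day of culture (x axis) for ligands, receptors, and feedback and output genes, with filled points for adjusted p under 0.05. Fgf8 ends at -4.31, Fgfr3 lies above 0 from D6.75 on, and Spry2, Spry4 and Etv4 lie below 0 at D8.5 and above 0 at D10.

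Counted together, more of the 10 genes differed between the conditions with time, as did more of all genes. Between CD1530 and AGN, 1 of the 10 was called at D6.25, where 1.92% of all genes were called, 5 at D6.75 (18.0% of all genes), 5 at D7.5 (26.9%), 7 at D8.5 (40.0%) and 8 at D10 (46.6%). The D10 calls were 4 higher in CD1530 (22.7% of all genes), namely Fgfr3, Spry2, Spry4 and Etv4, and 4 lower (24.0%), namely Fgf8, Fgf17, Fgfr1 and Fgfr2. The libraries of the conditions did not overlap at D10 for any of the 10 genes, which held for 57.0% of all genes. The D8.5 count was 4 without CD1530 D8.5 replicate 1. The median log2 fold change of the 10 genes at D10 was -0.12, beside -0.02 over all genes.

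The first step changed all 10 genes in both conditions, and 67.8% (CD1530) and 68.1% (AGN) of all genes. In each, 8 of the 10 rose (34.5% and 35.0% of all genes) and 2 fell, Fgf17 and Spry2 (33.3% and 33.1%). Those comparisons share the PM libraries and both include the change of medium. The median change of the 10 genes was 0.82 in CD1530 and 0.66 in AGN, beside 0.00 over all genes in both. Over the whole course, 10 of the 10 differed between PM and D10 in CD1530 (83.2% of all genes), 7 higher (43.3%) and 3 lower (39.9%), and 8 did in AGN (82.0%), 6 higher (41.6%) and 2 lower (40.4%).

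The middle steps held between 6 and 9 calls each. In CD1530, 8 of the 10 genes were called from D6.25 to D6.75 (45.9% of all genes), 7 from D6.75 to D7.5 (34.2%) and 6 from D7.5 to D8.5 (36.5%). In AGN the counts were 7 (43.7%), 8 (30.3%) and 9 (42.1%). The count of 8 became 5 or 6 without any single library of that step, and 5 without AGN D6.75 replicate 1 or AGN D7.5 replicate 3. The Fgfr1 call of that step was lost without each of these libraries, with values of 0.076 to 0.099. The Fgf17 call was lost without replicate 1 or 3 of either group, with DESeq2 and in the fit of the compared groups only.

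Tested directly, the size of a step differed between the conditions for 5 of the 10 genes from D6.25 to D6.75, where it did for 4.82% of all genes. These were Etv4 (0.51 ± 0.061, adjusted p = 1.07e-07), Fgfr2 (-0.65 ± 0.11), Fgf8 (-0.97 ± 0.20), Fgfr3 (1.09 ± 0.31) and Dusp6 (-0.14 ± 0.042). Etv4 rose in that step in CD1530 (0.24 ± 0.043) and fell in AGN (-0.27 ± 0.044). The calls of Dusp6 and Fgfr3 were lost without 9 and 6 of the 12 libraries of these groups, left out one at a time, with values of -0.15 to -0.12 and 0.84 to 1.09, and in the fit of the compared groups only. Scaling by library size only also lost the Dusp6 call (-0.13, adjusted p = 0.0656). The count was 3 without CD1530 D6.25 replicate 3, CD1530 D6.75 replicate 2, AGN D6.25 replicate 1 or 3, or AGN D6.75 replicate 3.

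From D6.75 to D7.5 the step differed for 4 genes (9.00% of all genes), Fgfr1 (0.17 ± 0.048), Fgfr2 (0.41 ± 0.098), Spry2 (-0.20 ± 0.058) and Spry4 (0.26 ± 0.073), and for 2 without AGN D7.5 replicate 3. The call of Fgfr1 was also lost without CD1530 D7.5 replicate 2 (0.14), and that of Spry2 without CD1530 D7.5 replicate 3 or AGN D6.75 replicate 1 (-0.18 and -0.17). From D7.5 to D8.5 it differed for 7 (11.5%), and for 4 without CD1530 D8.5 replicate 2 or AGN D8.5 replicate 3. The calls of Spry2, Fgfr2 and Fgfr3 were lost without 10, 8 and 7 of the 12 libraries in turn, and with the replicate number as a block those of Fgfr2 (0.28, adjusted p = 0.0592) and Spry2 (-0.17, adjusted p = 0.0637). The Spry2 call was also lost with scaling by library size only (-0.13, adjusted p = 0.17) and with DESeq2 (-0.17, adjusted p = 0.0536). In that step Etv4 fell in CD1530 (-0.28 ± 0.043) and rose in AGN (0.35 ± 0.043), a difference of -0.63 ± 0.060 (adjusted p = 1.77e-10), and Spry4 did likewise (-0.26 ± 0.052 and 0.15 ± 0.052). The rise of Spry4 in AGN was lost without AGN D7.5 replicate 3, AGN D8.5 replicate 1 or AGN D8.5 replicate 2 (0.11, 0.14 and 0.13) and with scaling by library size only (0.06). Dusp6 rose in AGN (0.37 ± 0.029) with 0.07 ± 0.030 in CD1530, a difference of -0.29 ± 0.042 (adjusted p = 1.32e-06).

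The closing step of the course (D8.5 to D10) took Fgf8 and Fgf18 up and the feedback genes down in AGN. In AGN, 9 of the 10 were called (59.4% of all genes), with Fgf8, Fgf18, Fgfr1, Fgfr2 and Fgfr3 rising (29.9%) and Spry2, Spry4, Dusp6 and Etv4 falling (29.5%). The falls in AGN were -0.63 ± 0.044 for Spry2, -0.78 ± 0.055 for Spry4, -0.39 ± 0.029 for Dusp6 and -0.66 ± 0.044 for Etv4. In CD1530, 7 were called (57.3%), Fgf18, Fgfr2 and Fgfr3 rising (27.4%) and Fgf8, Fgf17, Fgfr1 and Dusp6 falling (29.9%), and of these feedback and output genes only Dusp6 was called (-0.13 ± 0.030), while Spry2, Spry4 and Etv4 gave -0.06, -0.09 and -0.01. With scaling by library size only, these 3 were called lower in CD1530 too (-0.15, -0.19 and -0.11), and Spry4 also without CD1530 D10 replicate 1 (-0.14). The rise of Fgfr3 in CD1530 (0.50 ± 0.17, adjusted p = 0.0099) was lost without CD1530 D10 replicate 3 (0.36, adjusted p = 0.0928).

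The difference between the conditions in this step was called for 9 of the 10 genes (26.8% of all genes), all but Fgfr3 (-0.14 ± 0.26). It was 0.57 ± 0.062 for Spry2, 0.68 ± 0.077 for Spry4, 0.27 ± 0.042 for Dusp6 and 0.64 ± 0.062 for Etv4. Over the 5 time points, the condition effect changed with time for all 10 (48.8% of all genes), least firmly for Fgf17 (adjusted p = 0.0367). The Fgf17 call was lost with DESeq2 (adjusted p = 0.0598) and without any of 8 single libraries, CD1530 D6.75 replicate 1, CD1530 D8.5 replicate 2, CD1530 D10 replicates 1 and 3, AGN D8.5 replicates 1 and 3 and AGN D10 replicates 1 and 2, with adjusted p up to 0.12.

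**Figure D3:**
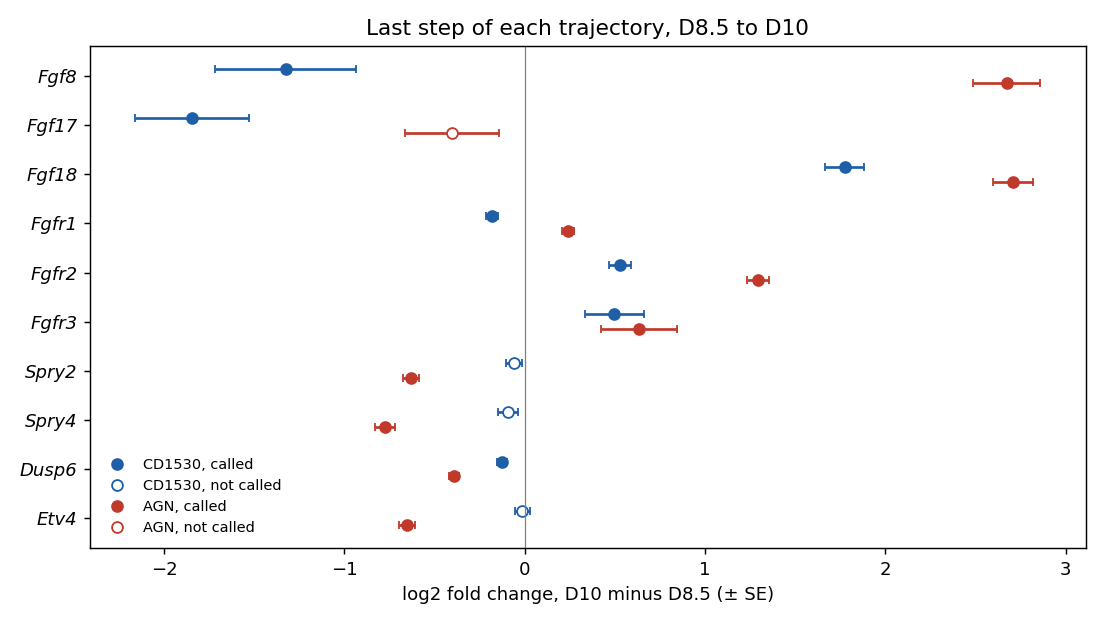
Log2 fold change from D8.5 to D10 with SE (x axis) for each of the 10 genes (rows) in CD1530 (blue) and AGN (red), with filled points for adjusted p under 0.05. In AGN the ligands Fgf8 and Fgf18 lie at 2.67 and 2.71 while Spry2, Spry4, Dusp6 and Etv4 lie below 0, and Fgf8 moves in opposite directions in the conditions.

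Further genes of the pathway at D10 came from lists drawn up for this purpose. Of the 15 other FGF family genes in the table, from a list of 19, 10 were called (46.6% of all genes). Of these, 1 was higher in CD1530 (22.7%) and 9 lower (24.0%). The median of the 15 was -0.90, beside -0.02 over all genes. The list joins receptor ligands with Fgf11, Fgf12, Fgf13 and Fgf14, which act inside the cell and are not receptor ligands. Fgf5, a ligand of the primed epiblast, averaged 1.14 ± 0.31 CPM in CD1530 and 25.9 ± 0.19 CPM in AGN (-4.49 ± 0.14), and Fgf4, a ligand of pluripotent cells, differed by -2.58 ± 0.079. Fgf15 and Fgf13 differed by -1.89 ± 0.32 and -1.50 ± 0.12. The exception, named after its value was seen, was Fgf2 (0.37 ± 0.11, adjusted p = 0.00372), the factor that was also added as protein to both media. Pou5f1, a marker of undifferentiated cells, had 26.63 CPM in CD1530 at D10 and 149.3 CPM in AGN. Of the 3 pluripotency markers, Pou5f1 was lower and Nanog higher in CD1530, and they summed to 78.53 to 83.55 CPM there and 188.1 to 197.4 CPM in AGN. The part of such cells in the levels of these FGF family genes was not tested.

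Of 8 other feedback inhibitors, 4 were called at D10 (46.6% of all genes), all of them higher in CD1530 (22.7%). They were the ERK phosphatases Dusp5 (0.98 ± 0.059) and Dusp4 (0.78 ± 0.058), the Sprouty gene Spry1 (0.82 ± 0.050) and the Sprouty-related Spred2 (0.19 ± 0.063). From D8.5 to D10 in AGN, 5 of the 8 fell (29.5% of all genes) and none rose, and in CD1530 2 rose (27.4%) and 3 fell (29.9%). At the first step, 6 of the 8 rose in each condition (34.5% of all genes in CD1530 and 35.0% in AGN), with Dusp5 up by 1.79 ± 0.060 in CD1530 and 1.46 ± 0.061 in AGN.

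Of 6 other output genes, 5 were called at D10 (46.6% of all genes), 3 higher in CD1530 (22.7%) and 2 lower (24.0%). Fosl1 (0.90 ± 0.12), Phlda1 (0.68 ± 0.088) and Egr1 (0.65 ± 0.050), which respond early to ERK, were higher in CD1530, and Etv1 (-0.71 ± 0.067) and Etv5 (-0.33 ± 0.038), ETS factors of the same subfamily as Etv4, were lower, Etv5 being named after its value was seen. Thus Etv4 and its relatives differed in opposite directions. Etv5 fell from 499.0 CPM in PM to 96.91 CPM in CD1530 at D10, while Etv4 did not fall below its PM level in CD1530.

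The other receptors and coreceptors were called at D10 in 14 of 15 cases (46.6% of all genes), 7 higher in CD1530 (22.7%) and 7 lower (24.0%). Fgfbp3 (1.68 ± 0.11) and Fgfbp1 (1.29 ± 0.12), which carry FGFs in the extracellular space, and the receptor Fgfr4 (1.43 ± 0.49, at 0.607 CPM in CD1530) were higher in CD1530, and Flrt3 (-1.35 ± 0.050), a membrane protein that binds FGF receptors, was lower. The kinases and adaptors between receptor and ERK differed little. Of the 17 reported here, 8 were called, a share near the 46.6% of all genes, with 6 higher in CD1530 (22.7%) and 2 lower (24.0%), and the 4 farthest from 0 were Gab1 at 0.44 ± 0.036, Shc1 at -0.39 ± 0.037, Map2k2 at 0.30 ± 0.048 and Mapk3 at -0.27 ± 0.046.

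**Figure D4:**
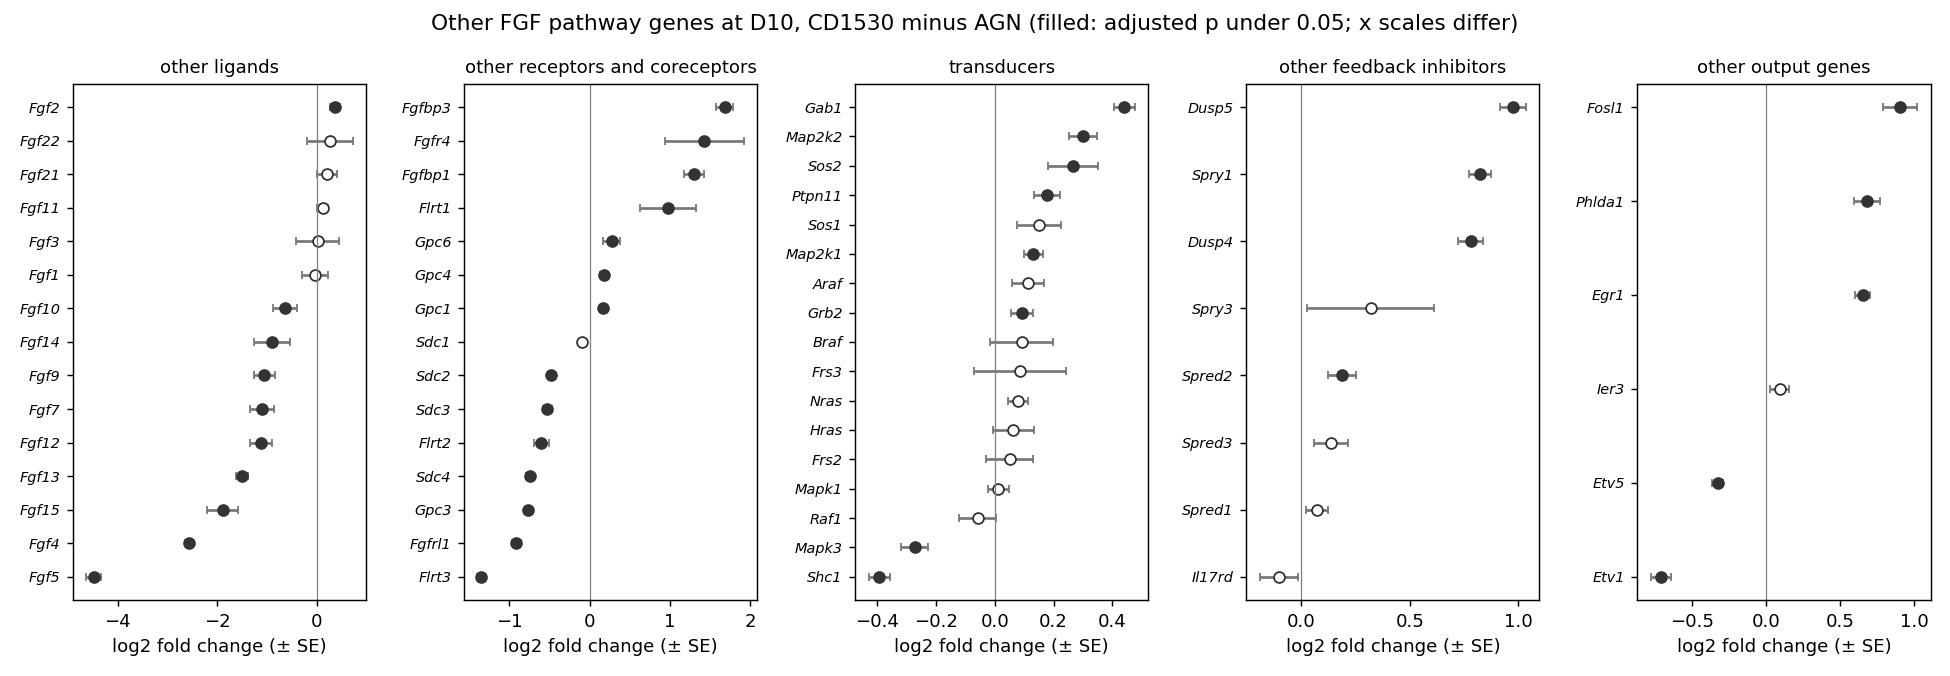
Log2 fold change at D10, CD1530 minus AGN, with SE (x axis, own scale per panel) for the other FGF pathway genes reported here (rows), with filled points for adjusted p under 0.05. In the panel of other ligands, which also holds Fgf11, Fgf12, Fgf13 and Fgf14, 9 of the 10 called genes lie below 0, down to -4.49 for Fgf5. Among other feedback inhibitors all 4 called genes lie above 0.

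Lastly, the genes whose 11 group means of log2(CPM + 1) were most like those of a member were sought among 12258 genes with a group mean of at least 5 CPM. For Fgf8 the closest was Mixl1 (r = 0.941), a homeobox gene of the primitive streak, followed by Atp2c1 and Firre. For Fgf18 they were Arfip2 (r = 0.982), Spag9 and Slc22a21, for Fgfr3 Cntfr (r = 0.958), Atp11a and Tinagl1, and for Dusp6 Inka1 (r = 0.989), Nol4l and Iffo2. These correlations describe 11 group means that share libraries and time, and they were chosen as the highest of many.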

How the data were processed

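RNA of 33 mouse libraries was sequenced. Reads were aligned to GRCm38 with STAR and assigned to genes with featureCounts, and the authors deposited raw counts per gene. The annotation release, strand setting and treatment of multi-mapping reads were not given in the sources used here. The 17120 genes had been filtered on low counts before deposit, each reaching 0.611 CPM or more in its 3 highest libraries. All libraries entered a single fit with a mean per group (R 4.3.3, edgeR 4.0.16, TMM scaling, robust quasi-likelihood F test), with Benjamini-Hochberg adjustment over all genes within each of 22 contrasts. The SE was the log2 fold change divided by the square root of F. The script was tested on simulated counts. Where replicates were not separate cultures, p-values measure only the spread between these samples. No replicates agreed within sampling noise (chi-square per gene from 1.59 to 21.9, the highest for CD1530 D6.75 replicate 1), and the common biological coefficient of variation was 4.68%. Exon lengths and positions came from GENCODE M21 and promoters from RefSeq.

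The 10 genes and the other lists were chosen with earlier results of these data known. One gene of the list of kinases and adaptors is not reported here, and the counts of that list are without it. From each list of other pathway genes, the text names up to 4 called genes with the largest difference at D10 and a group mean of at least 10 counts there, and up to 4 markers of a list in list order, others being named after their values were seen. Most similar genes were, for 4 members, the 3 highest Pearson correlations of group means, without other members and predicted genes. Alternatives were DESeq2 1.42.0, its size factors, library totals as the only scaling, no filter, a filter of 1 CPM in 3 libraries, replicate number as a block, the compared groups only, each library left out, and levels by library total.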

Additional observations from a re-analysis of the deposited data

Results flagged for a closer look

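The effect of the ligand on all 10 genes differed between time points (48.8% of all genes), by the test of condition and time over the 5 times. The adjusted p was 7.24e-16 for Fgfr1, 7.26e-14 for Etv4, 2.6e-13 for Fgf8, 1.37e-11 for Dusp6, 4.9e-10 for Fgfr2, 4.09e-09 for Spry4, 5.1e-09 for Spry2, 3.76e-05 for Fgf18, 0.000115 for Fgfr3 and 0.0367 for Fgf17. The change from D8.5 to D10 also differed between the conditions for 9 genes (26.8% of all genes). As CD1530 minus AGN on the log2 scale, the differences were -4.00 for Fgf8, -1.44 for Fgf17, -0.93 for Fgf18, -0.42 for Fgfr1 and -0.77 for Fgfr2, and 0.57 for Spry2, 0.68 for Spry4, 0.27 for Dusp6 and 0.64 for Etv4. The 5 ligands and receptors with a call had the more positive change in AGN, and the 4 feedback and output genes had the more positive change in CD1530. Causes were not tested.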

How the results depend on the processing

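Of 1344 differences recomputed under other scalings, filters and fits, 45 changed call or sign, and of 1548 recomputed with a library left out, 110 did. The count at D10 was 8 without any single library and 8 or 9 under the other settings. With the replicate number as a block, the calls lost were Fgfr2 at D8.5 (0.16, adjusted p = 0.0646) and, for the difference between the steps from D7.5 to D8.5, Fgfr2 and Spry2. In no contrast did all 3 same-numbered pairs correlate above 0.1, and the main fit did not treat the numbers as pairs. From D6.25 to D6.75 in CD1530 the pairs correlated at 0.199, 0.075 and 0.134. There each of the 3 D6.25 libraries correlated best with the D6.75 library of its own number, so the numbers may pair these libraries. A fit of the compared groups only, with fewer libraries behind the spread, called 3 genes instead of 1 at D6.25, 3 instead of 5 at D6.75, and for the difference between steps 3 instead of 5 from D6.25 to D6.75 and 1 instead of 4 from D6.75 to D7.5. DESeq2 called 2 at D6.25. With each library left out in turn, the counts were 4 to 7 at D8.5, 5 to 6 from D6.75 to D7.5 in AGN, and for the difference between steps 3 to 6 from D6.25 to D6.75, 2 to 4 from D6.75 to D7.5 and 4 to 6 from D7.5 to D8.5. Signs turned only for differences close to 0 that were not called. With DESeq2 size factors and with DESeq2, Fgf17 at D6.75 became -0.00059 and -0.00048, and Etv4 from D8.5 to D10 in CD1530 became 0.013 in both and 0.0081 with the compared groups only. Fgfr1 at D8.5 became 0.015 with library size only. Leaving out a library gave, at D6.25, -0.019 to 0.064 for Fgfr1, -0.040 to 0.028 for Spry4 and -0.030 to 0.0074 for Etv4, at D6.75 -0.14 to 0.25 for Fgf17, -0.022 to 0.30 for Fgf18 and -0.054 to 0.039 for Spry4, and at D8.5 -0.032 to 0.011 for Fgfr1. It gave -0.036 to 0.015 for Etv4 from D8.5 to D10 in CD1530, and -0.11 to 0.063 for Fgf8 and -0.075 to 0.010 for Etv4 at D10 against PM in AGN. Not called in the report but called under another setting were Fgf8 and Fgf18 at D6.25, Spry2 and Fgfr3 at D7.5, Fgf18 and Dusp6 at D10, Dusp6 from D7.5 to D8.5 in CD1530, Spry2, Spry4 and Etv4 from D8.5 to D10 in CD1530, and Etv4 at D10 against PM in AGN. The causes were not tested. Depth limits Fgf8, Fgf17 and Fgfr3 most, whose lowest counts in a library were 3, 4 and 11.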
